A study of Mus musculus with 12 samples.

Results

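The baseline transcriptome of wild-type hematopoietic stem cells (HSCs) was described from 6 of the 12 libraries of the series, chosen by their genotype label alone. These 6 libraries came from untreated wild-type (WT) C57BL/6J mice obtained from Charles River, aged 10 to 14 weeks. The other 6 libraries came from Pon2-/- mice of the same strain label and age range, which carry a gene trap vector in an intron of Pon2. They were used only as a second set in which the spread of single genes could be looked at, and no level was compared between the genotypes. In both groups, bone marrow cells were sorted as lineage negative, Sca1+, ckit+, CD135- and CD150+. The labels call them LT-HSCs, whereas the study describes this gate as a mixture of long-term HSCs and the multipotent progenitors MPP2. For each mouse, 8 wells of 10 sorted cells went into Smart-seq2, a protocol that amplifies full-length cDNA from very little RNA. The deposited counts are given per mouse, so that a WT library stands for 80 cells and the spread between libraries holds the difference between mice together with sampling of few cells and amplification. Each library lists 49585 genes, of which 49326 have a symbol in GENCODE release M21 and 259 do not.

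HSCs sit at the top of the blood system, divide rarely and give rise to every blood lineage. Their identity is held by a set of transcription factors, among them GATA2, TAL1, LMO2, RUNX1, ERG, MEIS1 and HLF, and by receptors such as KIT. Many HSCs carry low levels of transcripts of later lineages, above all of megakaryocytes, a state known as lineage priming. Genes of mature cells, such as the granule proteins of neutrophils or the antigen receptors of lymphocytes, are not part of HSC identity.

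The total count per library lay between 12967791 and 24228280, and between 14163 and 15656 genes had at least 1 count. Levels are given in counts per 1000000 (CPM), scaled with TMM factors of 0.977 to 1.03. Where no count was found, up to 3 may have been missed, or 0.124 to 0.230 CPM depending on the library. Such limits hold for counting error alone, since PCR copies of a molecule are counted separately. No relation of genes detected with depth was found over these 6 libraries (Pearson's r = 0.27, two-sided exact permutation test p = 0.604, adjusted p = 0.978, Spearman's rho = 0.31, p = 0.564), and r was -0.24 without the 2 libraries farthest from the median depth. Neither the mitochondrial share of counts (r = 0.01, p = 0.978, rho = -0.03, p = 1, and r = 0.66 without the 2 farthest libraries) nor the share taken by the 10 most counted genes (r = -0.03, p = 0.953, rho = -0.14, p = 0.803, and r = 0.35 without the 2 farthest) gave one, with an adjusted p of 0.978 for r in each of the 3 relations and of 1 for rho. The WT libraries split in 2 ways that bear on all means over the 6: Xist and Y-linked genes separate libraries 1 to 3 from libraries 4 to 6, and S100a8, S100a9, Ngp, Camp, Ltf and Lcn2, transcripts of neutrophils, were at or near 0 in libraries 1 and 6 only. Libraries 1 to 3 also had more counts, 19149531 to 24228280 against 12967791 to 16054035 in libraries 4 to 6. Their share of counts on genes annotated as nuclear rRNA was lower, at 1.77% to 2.39% against 3.27% to 4.85%. Spi1 and Nfe2 were higher in each of libraries 1 to 3, and Ifitm1 in each of libraries 4 to 6. Erg and Meis1 did not divide in this way. These differences cannot be told apart here, and their cause was not tested.

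RNA of the mitochondria and of the ribosome led the count tables. The mitochondrial 16S rRNA mt-Rnr2 had the highest mean with 31020 ± 8791 CPM (SD, n = 6), followed by CT010467.1, a nuclear gene annotated as rRNA, with 30425 ± 11106 CPM. The order holds for the mean only, as CT010467.1 was the higher of the 2 in libraries 4, 5 and 6. The long noncoding RNA gene Gm42418, with 0 counts, lies within CT010467.1 and matches 94.5% of its transcript. Reads that fall on both genes are assigned to neither. The level and rank of CT010467.1 and the share of nuclear rRNA may therefore be too low, by how much was not tested. Mitochondrial genes together took 4.89% to 8.54% of the counts, and genes annotated as nuclear rRNA took 1.77% to 4.85%. Library 4 had the highest share of both, and library 3 the lowest of both.

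Among protein-coding genes, mt-Cytb (cytochrome b of complex III) had 9834 to 13610 CPM, mt-Co1 (a subunit of cytochrome c oxidase) 5984 to 7543 CPM and mt-Nd1 (a subunit of complex I) 4143 to 7093 CPM. B2m, the light chain of MHC class I, had the highest mean among nuclear protein-coding genes (6551 CPM, range 5268 to 7419). Slc34a2 had a mean of 6445 CPM and was above B2m in libraries 1, 2, 4 and 5. The MHC heavy chains H2-K1 and H2-D1 had means of 4250 and 2662 CPM. These 2 heavy chain genes are over 90% identical to each other and to further class I genes, so that reads may be split among them. The remaining genes of the 15 most counted were Actb (cytoskeletal actin, 5847 ± 846 CPM), the nuclear long noncoding RNA Malat1 (4326 ± 778 CPM), the translation elongation factor Eef1a1 (3090 ± 356 CPM), Rsrp1 (2784 ± 380 CPM), the chaperone Hsp90ab1 (2752 ± 295 CPM), mt-Rnr1 (9319 ± 3272 CPM) and Slc34a2.

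Slc34a2 encodes a sodium-dependent phosphate transporter best known from lung and gut epithelium. It reached 7614, 7767, 2416, 8421, 7629 and 4822 CPM in libraries 1 to 6, a CV of 36.2%, and was number 7 of all genes by mean. The Pon2-/- libraries held 4989 to 9647 CPM of it. Where on the gene its reads lie was not tested, because the counts are given per gene.

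**Figure D1:**
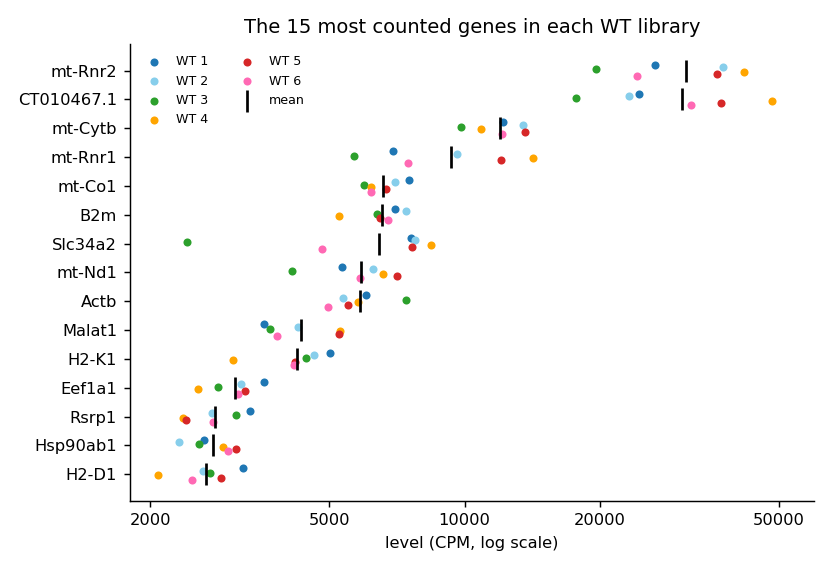
The level of the 15 most counted genes in each of the 6 WT libraries (x axis, CPM on a log scale), with 1 point per library and a bar at the mean. mt-Rnr2 and CT010467.1 lie furthest right and are spread widely, while mt-Co1, B2m and Eef1a1 are tight; library 3 stands to the left of the others for Slc34a2.

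Per kilobase (kb) of exon, which removes the advantage of long genes, the 10 highest protein-coding genes were mt-Cytb (10503 CPM per kb), B2m (7618), mt-Nd1 (6149), mt-Co1 (4272), S100a8 (3352), Rplp1 (2333), Actb (2182), S100a9 (2180), Ifitm3 (2173) and Ifitm1 (1646), all as mean CPM per kb. Ifitm1 and Ifitm3, interferon-induced membrane proteins that restrict virus entry, were high in every WT library, with 1420 to 2134 CPM and 1340 to 1670 CPM. S100a8 and S100a9, the calprotectin subunits of neutrophils, entered this list through libraries 2 to 5 alone.

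Of the 13 protein genes of the mitochondrial genome, 8 were counted in all 6 libraries and 5 were not. mt-Atp6, mt-Atp8, mt-Co3 and mt-Nd4l were listed at 0 in every WT library, and mt-Co2 had 1 count in all, while mt-Nd3 stood at 5.22 to 10.6 CPM. STAR's gene counts take uniquely mapped reads only. A nuclear pseudogene on chromosome 1 was 100% identical over at least 98% of the transcript for mt-Atp6 (Gm10925), mt-Co2 (Gm28661), mt-Co3 (Gm28437), mt-Nd3 (Gm28438) and mt-Nd4l (Gm10222). Reads that match both places are left out of such counts, and how many there were was not tested. The search for near-identical copies found none for mt-Atp8, which was at 0 as well. mt-Nd4 has a 100% identical copy over 63.6% of its transcript (Gm28439) and still held 1206 to 1980 CPM.

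Detection split the annotated genes into a large part without counts and a core counted in every library. A count of 0 is not proof of silence, because reads that match 2 places are left out. No count fell on 27318 genes in any WT library, 10119 genes were counted in all 6 (20.4% of all genes), and 4990, 2278, 1655, 1427 and 1798 genes were counted in 1, 2, 3, 4 and 5 libraries. Among protein-coding genes, 8831 of 21734 were counted in all 6 (40.6%) and 7245 in none. Protein-coding genes took 90.3% ± 2.47 (SD, n = 6) of the counts, and long intergenic noncoding RNAs 1.01% ± 0.124.

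How often a gene was seen followed its level. Of the 4438 genes with a mean of 1 to 10 CPM, 21.2% were counted in all 6 libraries, against 86.6% of the 7210 genes at 10 to 100 CPM and 99.7% of the 2184 genes at 100 to 1000 CPM. S100a8 was the single exception among the 62 genes at 1000 CPM and above. The median CV over the 6 libraries fell over the same 4 classes from 146% to 56.0%, 26.3% and 15.1%. Counting error alone would give a median CV of 13.0%, 4.01%, 1.86% and 0.585%. The spread between pools of 80 cells also holds differences between mice, sampling of few cells and amplification. It was therefore bound to exceed these values.

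Over the 8653 genes that passed edgeR's filter on low counts, the common biological coefficient of variation was 55.3% (jackknife SE 1.20, n = 6). This filter keeps genes with enough counts in all 6 libraries, and the value was 149% over all genes with a count. Levels correlated between libraries with a median Spearman's rho of 0.779 (range 0.756 to 0.834 over 15 pairs, log2 CPM across genes, which are not independent replicates).

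Stable genes were defined as counted in all 6 WT libraries, at a mean of 10 CPM or more and with a CV of at most 25%. They numbered 1494 of the 8486 genes that met the first 2 conditions (17.6%), and their median level was 155 CPM against 54.5 CPM for the 8486. The share rose with the level, from 450 of 6247 such genes at 10 to 100 CPM to 995 of 2178 at 100 to 1000 CPM. Dropout-prone genes, with 0 counts in at least 1 library and 10 CPM or more in another, numbered 3074 of the 12037 genes that reached 10 CPM anywhere (25.5%). Of these, 1166 lacked counts in 1 library only, 651 in 2, 566 in 3, 397 in 4 and 294 in 5. They were spread over the libraries, each of which lacked between 972 (library 3) and 1357 (library 6) of them. By gene type, 97.1% of the stable genes were protein-coding, close to the 96.8% of the 8486, and 78.3% of the dropout-prone genes, against 91.3% of the 12037.

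**Figure D2:**
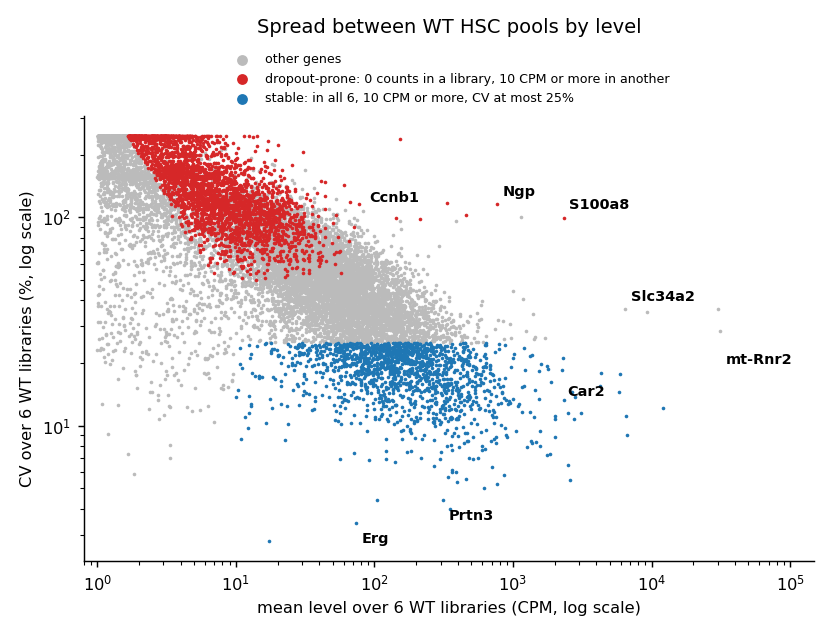
Mean level (x axis, CPM) against the CV over the 6 WT libraries (y axis, %), both on log scales, for every gene with a mean of at least 1 CPM. The CV falls with the level; S100a8 and Ngp lie far above genes of like level, and Erg and Prtn3 far below.

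Lists of translation and energy metabolism genes had many stable members. Of the 79 cytosolic ribosomal protein genes counted in all 6 libraries at 10 CPM or more, 75 were stable (94.9%), with a median CV of 12.6%, and the family took 4.75% to 5.60% of the counts. The nuclear-encoded respiratory chain list had 14 stable genes of 16 (Cox4i1 at 757 CPM with a CV of 8.79%, Atp5b at 1373 CPM with 21.9%), and the glycolysis list 8 of 14 (Ldha at 883 CPM with a CV of 17.0%, Pkm at 485 CPM with 21.4%). Proteasome subunit genes had 22 of 38. All of these stood above the 17.6% found over all genes in all 6 libraries at 10 CPM or more. Levels differ between lists, however, and no test was made of the difference.

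The 10 stable genes with the lowest CV were Gpx4-ps2, Erg, Elmo1, Prtn3, Mrpl43, Rpl18, Fxyd5, Srsf11, Fth1 and Psmb1. Erg, an ETS transcription factor needed for HSC maintenance, held 76.7, 73.1, 70.6, 71.7, 72.0 and 76.2 CPM in libraries 1 to 6, a CV of 3.41%. Elmo1, an activator of Rac signalling, held 336 to 373 CPM, the ribosomal protein gene Rpl18 held 588 to 667 CPM and the ferritin heavy chain gene Fth1 held 2402 to 2831 CPM. Fxyd5, a regulator of the sodium pump, held 698 to 810 CPM, the splicing factor gene Srsf11 367 to 416 CPM, the proteasome subunit gene Psmb1 425 to 486 CPM and the mitochondrial ribosome gene Mrpl43 96.1 to 109 CPM. Gpx4-ps2, at 16.7 to 18.0 CPM, is a pseudogene 99.6% identical to Gpx4, the glutathione peroxidase that repairs lipid peroxides, so that its reads are uncertain. Rpl18, Fth1 and Mrpl43 also have near-identical transcripts of other genes, and how this bears on their levels was not tested.

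The ranking of such low CVs rests on 6 values each. In the 6 Pon2-/- libraries, which played no part in the definition, the same 10 genes had CVs of 7.08% (Rpl18) to 35.4% (Erg). Of the WT-defined classes, 748 of the 1494 stable genes (50.1%) met the same 3 conditions in the Pon2-/- libraries, against 631 of the 6992 other genes (9.02%), and their median CV there was 24.9% against 51.0%. Of the dropout-prone genes, 1570 of 3074 (51.1%) were dropout-prone in the Pon2-/- libraries too, against 825 of the 8963 other genes that reached 10 CPM (9.20%), and 605 (19.7%) were counted in all 6 of them. Both classes differ from the other genes in level, which these shares do not remove.

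**Figure D3:**
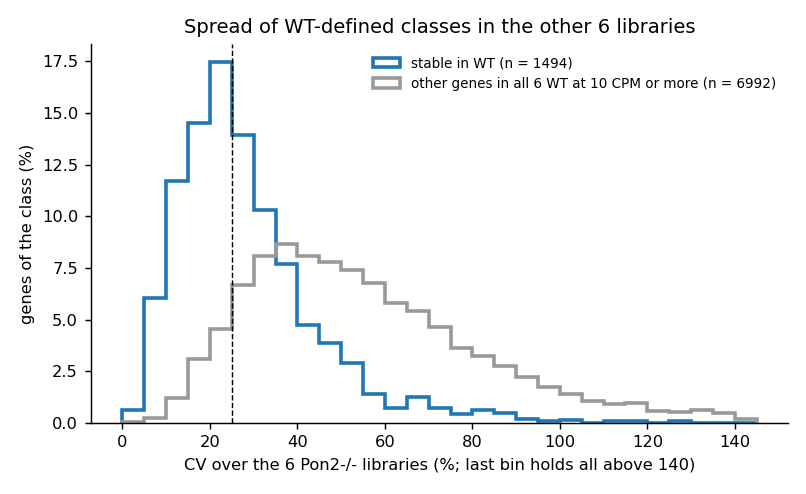
CV over the 6 Pon2-/- libraries (x axis, %) of genes classed in the WT libraries, as the share of each class per bin (y axis, %), with a dashed line at 25%. The 1494 genes stable in WT are shifted to lower CVs (median 24.9%) than the 6992 other genes (median 51.0%), and about as many lie above as below the line.

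Transcripts of the genes used for the positive gate were present in every WT library. Ly6a, which encodes Sca1, held 146 to 331 CPM with a median of 218, Kit, the stem cell factor receptor, 257 to 652 CPM with a median of 456, and Slamf1, which encodes CD150, 30.9 to 113 CPM with a median of 56.9. Of the 12 genes matched for the antigens gated out, Cd3e, Cd3g, Cd4, Cd5 and Cd8a had no count in any WT library, 4 were counted in 1 to 5 libraries and 3 in all 6. Cd3d, a part of the T cell receptor complex, was at 0 in 3 libraries and reached 2.75 CPM in library 5, and Ly6c1 reached 0.052 CPM in library 2 alone. Ly6c2, which encodes a form of Ly6C, was at 6.82, 62.4, 13.9, 54.7, 6.58 and 0 CPM in libraries 1 to 6. Ptprc, whose B220 isoform is the gated antigen and which is not confined to B cells, held 243 to 372 CPM. Flt3, which encodes CD135, was counted in all 6 libraries at 4.56 to 49.1 CPM, and Itgam, which encodes CD11b, at 0.182 to 16.6 CPM. Within the libraries Kit exceeded Flt3 per kb by 3.60 on the log2 scale (SE 0.37, higher in 6 of 6 libraries), a direction that the gate selected for.

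The list of HSC identity genes, which also holds the progenitor-linked surface genes Cd34 and Cd48, was almost all detected, with 39 of 41 counted in all 6 libraries against 40.6% of protein-coding genes. Their median level was 31.6 CPM per kb, against 0.750 for all protein-coding genes. The exceptions were Hoxb4, a homeobox gene that expands HSCs when forced, at 0 to 5.83 CPM, and Neo1, at 0 to 65.7 CPM and without counts in libraries 2 and 6. Of the 39, 16 were stable (41.0%, against 17.6% over all genes in all 6 libraries at 10 CPM or more, a share that rises with level). The summed level of the list ran from 7003 to 8128 CPM with a CV of 5.07%. Such a sum evens out its members, whose median CV was 32.8% at 10 CPM or more. The sum of all protein-coding genes had a CV of 3.39%.

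Transcription factors of the HSC programme ranged widely in level. Meis1, a homeobox cofactor, was the steadiest after Erg, with 308 to 381 CPM (CV 8.01%). Hlf, whose expression marks HSCs, held 324 ± 41.7 CPM (SD, n = 6), the LIM-domain bridging protein gene Lmo2 420 ± 58.1 CPM, Mecom (EVI1) 254 ± 57.8 CPM and Mllt3, a partner of the elongation machinery, 289 ± 60.1 CPM. Gata2 held 81.8 to 174 CPM, Runx1 30.1 to 102 CPM, Hoxa9 91.7 to 273 CPM, Tal1 15.5 to 46.2 CPM and Hoxb5 3.93 to 29.9 CPM. These 5 had CVs of 31.9% to 49.2%, and none was stable.

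Surface and other HSC genes ranged as widely. Txnip, an inhibitor of thioredoxin that keeps HSCs quiescent, had 778 ± 98.4 CPM and was the highest of the list per kb (249 CPM per kb). Pdzk1ip1 held 318 to 466 CPM and the junction protein gene Esam 135 to 235 CPM, both stable. Procr, which encodes the endothelial protein C receptor EPCR, held 33.6, 150, 167, 87.8, 138 and 171 CPM in libraries 1 to 6, with library 1 the lowest. Cd34, which rises as HSCs become progenitors in the mouse, held 350, 304, 316, 282, 138 and 177 CPM, with libraries 5 and 6 the lowest. The cell cycle inhibitor gene Cdkn1c (p57) held 7.38 to 22.1 CPM. The antisense gene Gm44732, with 0 counts, lies within Cdkn1c and matches 60.6% of a Cdkn1c transcript. Reads that fall on both genes are assigned to neither, so that Cdkn1c may be undercounted, by how much was not tested.

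Cd48, a SLAM antigen that MPP2 cells carry and long-term HSCs lack, was counted in every library. Its levels were 58.7, 48.3, 73.6, 0.997, 33.6 and 34.6 CPM, so that library 4 stood near 0 and the others did not. Per kb, Slamf1 minus Cd48 averaged -1.16 on the log2 scale (SE 0.98), with Slamf1 higher in 1 of 6 libraries (two-sided exact sign-flip test p = 0.312, adjusted p = 0.357). The share of MPP2 cells cannot be read from these counts, because fewer cells of a type and less RNA per cell cannot be told apart in bulk libraries.

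Megakaryocyte genes were the lineage list with the most members in all libraries, 12 of 20 against 40.6% of protein-coding genes, at a median of 5.51 CPM per kb. By median level the granulocyte and monocyte list was higher, at 15.3 CPM per kb. Nfe2, a transcription factor of platelet formation, held 280 to 527 CPM and the tetraspanin gene Cd9 126 to 306 CPM. The platelet genes Pf4 (a chemokine of alpha granules), Gp9 and Itga2b (parts of platelet adhesion receptors) held 31.5 to 75.1, 34.9 to 105 and 21.6 to 62.2 CPM, and Vwf (von Willebrand factor) 11.0 to 79.4 CPM. Selp, which encodes P-selectin, dropped to 0 in library 5 and reached 30.6 CPM in library 2. None of the 12 was stable, against 17.6% over all genes in all 6 libraries at 10 CPM or more. That share was lower at 10 to 100 CPM (450 of 6247 genes), where Pf4, Gp9, Itga2b and Vwf lie by their means.

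Erythroid genes were uneven in level and led by Car2. Of 19 matched genes, 4 were counted in all 6 libraries (21.1%, against 40.6% of protein-coding genes), 11 in 1 to 5 and 4 in none, and the median was 1.18 CPM per kb against 0.750. The 4 were Car2, Hbb-bt, Hemgn and Tfrc. Car2, a carbonic anhydrase also found in HSCs and early progenitors, held 1797 to 2979 CPM and was stable (CV 18.4%), whereas Car1, the anhydrase of later erythroid cells, had no count in any library. Hbb-bt, an adult beta globin gene, held 5.98 to 37.6 CPM, Hba-a1 0 to 3.99 CPM and Klf1, the master regulator of red cell genes, 0 to 2.27 CPM. Both globin genes have a copy at over 99% identity, so that their reads may be split. Hemgn (hemogen, a nuclear protein of blood progenitors and erythroid cells) held 9.33 to 114 CPM and Tfrc, the transferrin receptor gene, 3.93 to 43.7 CPM. Gata1 was at 47.9, 0.21, 1.28, 0, 0 and 2.30 CPM, with library 1 far above the others. Epor, the erythropoietin receptor gene, peaked in library 3 at 22.8 CPM and had no count in libraries 4 and 6.

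**Figure D4:**
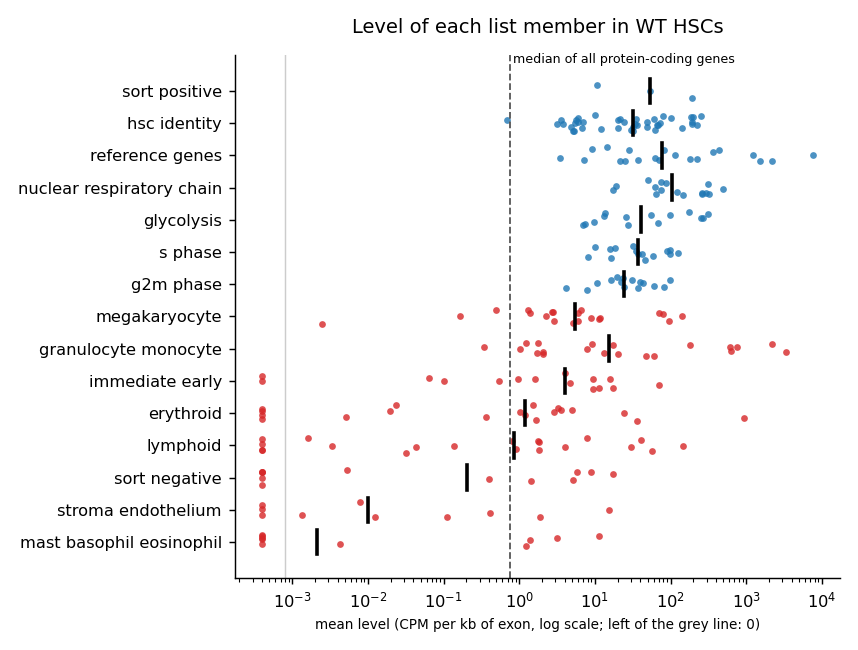
Mean level of each member of 15 gene lists over the 6 WT libraries (x axis, CPM per kb of exon, log scale), with a black bar at the list's median and a dashed line at the median of all protein-coding genes. HSC identity, housekeeping and cell cycle lists (blue) lie right of the dashed line apart from Hoxb4, and the lineage, gated-out and immediate early lists (red) spread over both sides.

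Pairs of genes with opposed roles were compared within each library on the log2(CPM per kb + 0.1) scale, which understates differences of low genes. Beside Kit over Flt3, the difference had the same sign in all 6 libraries for Gata2 over Gata1 (5.20, SE 1.07) and Spi1 over Gata1 (6.19, SE 1.02). Each of these 3 reached the smallest p that a two-sided exact sign-flip test over 6 libraries can give (p = 0.0312). After adjustment over the 8 pairs tested the value was 0.05, which is not below the threshold of 0.05. For Kit over Flt3 this p is no support, because sorting for ckit+ and CD135- cells selected for that direction beforehand. Gata2 over Gata1 and Spi1 over Gata1 share Gata1 and are not independent. Genes were also chosen with earlier results of these data known, which limits what these p-values can show. Vwf over Elane (3.13, SE 0.90, higher in 5 of 6 libraries, exact p = 0.0625, adjusted p = 0.0833) and Cebpa minus Ebf1 (-0.64, SE 1.31, higher in 2 of 6, exact p = 0.688, adjusted p = 0.688) had mixed signs. The sizes rest in part on the added 0.1: with 1 CPM per kb added instead, the difference was 3.36 for Gata2 over Gata1, 4.32 for Spi1 over Gata1, 3.27 for Kit over Flt3 and 0.97 for Vwf over Elane.

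Granulocyte and monocyte genes had the widest spread of the summed level among the lists (CV 77.4%). Their median level, 15.3 CPM per kb, was the highest of the lineage lists, against 0.750 for all protein-coding genes. 7 of 20 members were counted in all 6 libraries (35.0%, against 40.6% of protein-coding genes), 9 of the 16 that reached 10 CPM were dropout-prone (against 25.5% over all genes), and the list's summed level was 1642, 12401, 10252, 10583, 3359 and 1058 CPM in libraries 1 to 6. Regulators and receptors of early myeloid cells were counted in every library: Spi1 (PU.1) at 37.5 to 211 CPM, Csf3r (the G-CSF receptor) at 41.5 to 123 CPM and Irf8 at 0.367 to 37.1 CPM. Irf8 had only 7 counts in library 2. The lysozyme gene Lyz2, whose product is made by mature myeloid cells, held 557 to 1663 CPM. It was highest in libraries 2 and 3 and lowest in library 6. Cebpa, the factor that starts granulocyte differentiation, was at 0 in 4 libraries and at 6.80 and 9.18 CPM in libraries 3 and 5, and Csf1r, the M-CSF receptor gene, was at 0 in 4 and reached 8.13 CPM.

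Genes of primary granules, made in promyelocytes, took several patterns. Mpo, the myeloperoxidase gene, held 98.8, 13.3, 28.5, 7.36, 12.2 and 0 CPM. Ctsg, the cathepsin G gene, was at 71.0 CPM in library 1 and 11.1 CPM in library 3, the libraries where Mpo was highest, and at 0 in the other 4. Elane, the neutrophil elastase gene, had counts in library 5 only, at 10.1 CPM. Prtn3, the proteinase 3 gene, held 338, 312, 320, 296, 308 and 310 CPM and was the fourth steadiest stable gene (CV 4.39%). Prtn3 (chr10:79874476-79883174) and Elane (chr10:79886247-79888215, both + strand, GRCm38) are neighbours. The RefSeq start of Prtn3 lies inside that span, and where on it the reads of Prtn3 fall was not tested. In the Pon2-/- libraries Prtn3 held 230 to 374 CPM and Elane had no count in any, so that the contrast was present there as well.

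Genes of late granules and of the neutrophil cytosol varied as a block. S100a8 was at 19.8, 5386, 3103, 4443, 1005 and 0 CPM in libraries 1 to 6, and S100a9 at 4.74, 2308, 1183, 2678, 652 and 1.33 CPM. Ngp, which encodes neutrophilic granule protein, was at 0, 1253, 2207, 962, 163 and 0 CPM, and Camp, the cathelicidin gene, at 0, 584, 1172, 779, 206 and 0 CPM. Libraries 2 to 5 were high in all 4 genes, and libraries 1 and 6 were at or near 0. Ltf (lactoferrin) was at 0, 431, 475, 242, 123 and 0 CPM and Lcn2 (lipocalin 2) at 0, 248, 237, 320, 53.2 and 0.364 CPM. Retnlg, a resistin-like gene of neutrophils, was instead high in library 2 only, at 896 CPM, with 19.0 CPM in library 3 and 0 in the other 4, and Mmp8, the neutrophil collagenase gene, reached 223 CPM in library 2 and 0 to 88.4 CPM elsewhere.

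These 7 genes other than S100a9 were among the 10 dropout-prone genes with the highest level in any library, together with Xist, Ighm and Pepd. S100a9 itself was counted in all 6. Of the gated-out markers of these cells, Ly6g was at 0 to 22.5 CPM, Itgam at 0.182 to 16.6 CPM and Ly6c2 at 0 to 62.4 CPM. Neither library 1 nor library 6 had a count of Ly6g, and Ly6c2 was highest in libraries 2 and 4. These markers followed the block only in part. Ly6g was at 0.21 CPM in library 2, where S100a8 was highest, and Ly6c2 was alike in libraries 1 and 5 (6.82 and 6.58 CPM). Itgam was at 8.24, 5.72, 8.33, 16.6, 3.54 and 0.182 CPM in libraries 1 to 6, so that library 1 was not low. The block varied over the Pon2-/- libraries too, where S100a8 ranged from 17.1 to 8338 CPM, Ngp from 0 to 1552 CPM and Ltf from 0 to 1319 CPM. The summed level of the HSC identity genes showed no such split, although a sum evens out single genes. It was 8128 and 7236 CPM in libraries 1 and 6 and 7003 to 7595 CPM in libraries 2 to 5. The part of mature neutrophils in these counts was not tested, and fewer cells or less RNA per cell cannot be told apart.

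**Figure D5:**
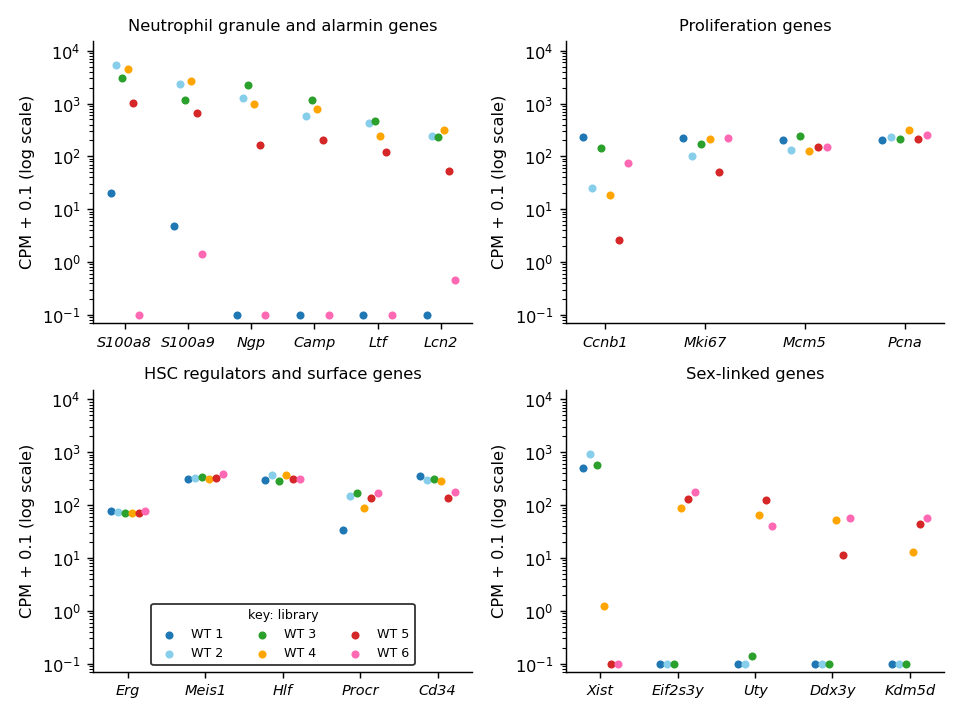
Level of single genes in each of the 6 WT libraries (y axis, CPM + 0.1 on a log scale, so that a gene without counts lies at 0.1), with 1 point per library. Neutrophil genes are high in libraries 2 to 5 and near the bottom in 1 and 6, Erg, Meis1 and Hlf form flat clusters, Ccnb1 spreads from 231 to 2.53 CPM, and Xist is opposed to the Y-linked genes.

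Because S100a8, S100a9, Ngp and Ltf were high in the same 4 libraries, the sequence before their start is shown, beside that of Retnlg, Mmp8, Prtn3 and Elane, neutrophil genes with other patterns. Each is the 100 bases closest to the RefSeq start (GRCm38.p6) that no annotated exon of GENCODE M21 covers, read 5′ to 3′ on the gene's strand. Capitals mark CCAAT and the C/EBP-type motif TTGCNNAA on either strand, and GGGCGG (the SP-type motif) was searched as well. The windows end between 0 and 93 bases before the start, and that of Prtn3 lies within the span of the counted gene. Camp and Lcn2 are not shown, as exons cover their windows.
S100a8 (chr3:90668878-90668977, + strand): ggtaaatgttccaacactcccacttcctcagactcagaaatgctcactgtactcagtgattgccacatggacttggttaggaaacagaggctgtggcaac
S100a9 (chr3:90695722-90695821, - strand): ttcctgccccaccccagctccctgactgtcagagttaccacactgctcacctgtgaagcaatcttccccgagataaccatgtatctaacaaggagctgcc
Ngp (chr9:110419647-110419746, + strand): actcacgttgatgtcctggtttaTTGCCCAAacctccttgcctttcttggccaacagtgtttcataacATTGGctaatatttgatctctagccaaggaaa
Ltf (chr9:111019171-111019270, + strand): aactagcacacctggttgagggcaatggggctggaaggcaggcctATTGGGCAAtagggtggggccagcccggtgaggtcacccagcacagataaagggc
Retnlg (chr16:48872508-48872607, + strand): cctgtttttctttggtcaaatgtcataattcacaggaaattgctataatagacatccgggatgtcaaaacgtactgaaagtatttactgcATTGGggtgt
Mmp8 (chr9:7558329-7558428, + strand): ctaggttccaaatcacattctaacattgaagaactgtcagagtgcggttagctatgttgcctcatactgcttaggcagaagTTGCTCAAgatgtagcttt
Prtn3 (chr10:79879514-79879613, + strand): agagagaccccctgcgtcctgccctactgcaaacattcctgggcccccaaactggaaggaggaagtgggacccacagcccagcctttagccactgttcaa
Elane (chr10:79886147-79886246, + strand): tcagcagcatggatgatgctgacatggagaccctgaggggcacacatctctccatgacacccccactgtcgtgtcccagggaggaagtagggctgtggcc

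The C/EBP-type motif stood in the windows of Ngp, Ltf and Mmp8, in the last starting 19 and in Ngp 138 bases before the start. Over 13778 protein-coding genes with 1 listed start, it stood in 3.12% of the 100 bases directly before the start, which are not the same stretch as most windows shown, and in 9.07% of the 250 bases before it, which hold all of them. CCAAT stood in those of Ngp, Ltf (where it overlaps the C/EBP-type motif) and Retnlg, and in 21.8% of the 100 and 36.5% of the 250 bases of the 13778. GGGCGG stood in none of the 8 windows, and in 34.4% and 43.7%. C/EBP factors are known regulators of granule genes, but a match in so short a window is a description and not a site. Over the 250 bases before the start, the C/EBP-type motif stood in 6.75% of 933 stable, 7.88% of 1484 dropout-prone and 6.92% of 4553 other protein-coding genes that reached 10 CPM. CCAAT stood in 38.8%, 37.5% and 37.0% of these, and GGGCGG in 57.6%, 55.9% and 63.4%. TATAAA at 40 to 20 bases before the start stood in 0.857%, 1.68% and 0.922%, against 2.98% of the 13778, and the median GC content was 59.2%, 59.0% and 60.4%, against 55.6%.

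Lymphoid genes were sparse, and 2 of 20, Cd79b and Nkg7, were counted in all 6 libraries (10%, against 40.6% of protein-coding genes). Cd79b, a part of the B cell receptor, held 83.6, 206, 43.0, 73.1, 51.0 and 25.2 CPM in libraries 1 to 6, and Nkg7, a gene of cytotoxic granules, 38.2 to 241 CPM. Il7r, the receptor of lymphoid progenitors, had no count in any. Other B lineage genes were absent from some libraries: Ighm (immunoglobulin heavy chain constant mu) was at 21.7, 126, 61.0, 17.5, 235 and 0 CPM, Cd79a (the partner of Cd79b) at 0, 87.1, 0, 19.6, 158 and 0 CPM and Ebf1 at 0.043 to 23.0 CPM in libraries 1 to 5 and 0 in library 6. Dntt, which adds bases to antigen receptor joints, was counted in library 3 only, at 24.6 CPM, and Rag1 reached 5.35 CPM in library 2. The summed level of the list was highest in library 5 (730 CPM) and next in library 2 (603 CPM), and 188 to 367 CPM in the others.

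Other cell types of the marrow left few traces. Of the 10 mast cell, basophil and eosinophil genes, Cpa3 (mast cell carboxypeptidase) alone was in all 6 libraries, at 7.29 to 37.9 CPM, and Mcpt8 was counted in library 1 only, at 8.37 CPM. Of the 10 stroma and endothelium genes, Emcn (endomucin, which HSCs also carry) held 41.2 to 150 CPM and Pdgfrb 2.85 to 22.9 CPM, while Cdh5, the defining cadherin of endothelium, had no count and Col1a1 a single count in all.

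All 15 S phase and all 15 G2/M genes were counted in every library, and the lists differed in spread. The summed S phase level ranged from 2610 to 3281 CPM (CV 8.56%) and the summed G2/M level from 762 to 3372 CPM (CV 53.4%), over 4.42 times. Pcna, the replication clamp gene, held 202 to 310 CPM, and the replicative helicase gene Mcm5 125 to 239 CPM. Ccnb1, the cyclin of mitotic entry, held 231, 24.8, 144, 18.8, 2.53 and 75.9 CPM, and Mki67 220, 103, 168, 211, 50.7 and 227 CPM. Library 5 was the lowest in both and library 1 the highest in the G2/M sum. Stable genes made up 7 of the 15 S phase genes and 1 of the 15 G2/M genes. The share was 17.6% over all genes in all 6 libraries at 10 CPM or more, and it rises with level.

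Immediate early genes, which are induced within minutes of handling or growth factors, differed widely in level. 7 of 15 were counted in all 6 libraries (46.7%, against 40.6% of protein-coding genes), Atf3 and Jund in none, and the median was 3.98 CPM per kb against 0.750. Ier2 was the highest, at 81.8 to 155 CPM, followed by Klf6 at 50.8 to 111 CPM and Dusp1, a MAP kinase phosphatase gene, at 0.604 CPM in library 1 and 50.1 to 76.5 CPM in the others. Fos was counted in library 5 only, at 7.67 CPM, and Jun was at 0 to 9.21 CPM. Egr1 held 9.10 to 80.7 CPM and Junb 12.3 to 55.5 CPM.

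Commonly used reference genes were all detected in every library, and 13 of 20 were stable. The share was 17.6% over all genes in all 6 libraries at 10 CPM or more, and it rises with level. Among those named, Rplp0 (CV 11.5%), Ppia (13.4%), Hprt (16.6%), Gapdh (16.8%) and Ywhaz (17.8%) met the definition and Tbp did not, with 38.2 to 143 CPM (CV 38.7%). Rplp0, Ppia, Gapdh and Ywhaz have near-identical copies, for Gapdh at 100% over 94.3% of the transcript (Gm10359). Reads that match 2 places are left out, so that these levels may be too low. The median level of the list was 76.7 CPM per kb. Pon2 itself, the gene studied in the series, held 107, 201, 86.7, 55.3, 104 and 122 CPM, a CV of 43.3%, close to the median CV of 44.1% of the 8486 genes counted in all libraries at 10 CPM or more.

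Xist, the RNA that coats the inactive X chromosome, was at 506, 932, 573, 1.15, 0 and 0 CPM. The Y-linked genes Ddx3y, Eif2s3y and Kdm5d had no count in libraries 1 to 3 and held 11.4 to 56.5, 88.9 to 181 and 13.0 to 56.1 CPM in libraries 4 to 6, and Uty had 1 count in libraries 1 to 3 together and 39.7 to 125 CPM in the others. The labels used here give no sex. The neutrophil block, which was high in libraries 2 to 5, did not follow this split.

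Genes counted in a single library could reach high counts. The 5 highest of 4990 were Mgarp (1422 counts in library 2, 74.6 CPM), Slc19a2 (1043 counts in library 3, 43.0 CPM), Agtr1a (917 counts in library 1, 39.6 CPM), Gm43011 (873 counts in library 1, 37.7 CPM) and Tspan8 (866 counts in library 1, 37.4 CPM). Agtr1a encodes an angiotensin II receptor, Slc19a2 a thiamine transporter and Tspan8 a tetraspanin. The median of the highest count over all 4990 was 3, and 294 of them reached 10 CPM. Pepd, a dipeptidase gene among the dropout-prone genes with the highest levels, showed the opposite form, with 182, 30.6, 102, 0, 64.3 and 47.7 CPM and a single empty library.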

How the data were processed

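The authors sequenced Smart-seq2 libraries, trimmed reads with Trimmomatic 0.36, mapped them to GRCm38.p5 with STAR 2.5.3a and counted reads per gene of GENCODE M12. The deposited values are raw counts per gene, without normalization, taken as STAR's unstranded column. Reads of overlapping or antisense genes cannot be told apart.

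CPM used TMM factors of edgeR 4.0.16 (R 4.3.3) from the 6 WT libraries. The low-count filter was filterByExpr, and dispersion had an intercept only. Symbols, positions and exon lengths came from GENCODE M21, and lists had 2 symbols without a match. Relations and gene pairs used exact permutation tests in Python with Benjamini-Hochberg adjustment. Near-identical copies were transcripts of another gene at 90% identity over 50% of the length (minimap2 2.31-r1302), and 33 of the 127 named genes had them. The scripts were tested on simulated data.

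Named genes were the 15 most counted, the 10 highest per kb among protein-coding genes, marked list members, the 10 steadiest stable genes, the 10 dropout-prone genes with the highest level, the paired genes and the 5 highest genes of a single library; others were named where a count was 5 or fewer, and Ly6g, Ly6c2, Neo1, Ctsg, Ier2, Klf6 and Dusp1 after their values were seen. Members and lists were chosen with earlier results of these data known. Alternatives were DESeq2 1.42.0 size factors, total counts, other limits, thinning to 12967791 counts and leaving out each library. That samples are separate mice follows from the labels. A few of the genes so chosen are not reported here.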

Additional observations from a re-analysis of the deposited data

Results flagged for a closer look

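In each case below, 1 of the 6 WT libraries lay far from the other 5 by Dixon's ratio, which chance alone flags in about 1 of 20 groups. It was applied to 148 genes and library measures and flagged 18, mostly genes that are counted in few libraries, for which the ratio is high by construction.

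Library 1 held Gata1 at 47.9 CPM (next 2.30), Mpo at 98.8 CPM (next 28.5), Cpa3 at 37.9 CPM (next 17.6), Mcpt8 at 8.37 CPM (0 elsewhere) and Rplp0 at 3040 CPM (next 2520). Agtr1a (39.6 CPM), Gm43011 (37.7 CPM) and Tspan8 (37.4 CPM) had counts in library 1 alone. Library 2 held Retnlg at 896 CPM (next 19.0), Rag1 at 5.35 CPM (next 0.043), Mgarp at 74.6 CPM and Col1a1 at 0.052 CPM, the last 2 at 0 elsewhere. Library 3 held Epor at 22.8 CPM (next 6.82), Dntt at 24.6 CPM and Slc19a2 at 43.0 CPM, the last 2 at 0 elsewhere. Hoxb4 reached 5.83 CPM in library 4 (next 1.77), and Elane (10.1 CPM) and Fos (7.67 CPM) had counts in library 5 alone. Of the genes with counts in all 6 libraries, those singled out were Cpa3 and Rplp0.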

How the results depend on the processing

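No paired analysis was possible because no comparison between the genotypes was made. The counts of detected genes stayed within 1.5 times under every alternative run. Stable genes numbered 862 with a CV limit of 20%, and dropout-prone genes 1650 with a minimum of 20 CPM. The biological coefficient of variation was 149% without the filter, 44.0% as the median of DESeq2 gene-wise estimates, and 55.5% to 57.1% when leaving out each library. The 10 most counted genes took 7.58% without mitochondrial genes. The median rank correlation was 0.805 without the filter.

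List medians (CPM per kb) over the longest transcript were 90.5 for the positive gate, 44.7 for HSC identity, 49.4 for S phase, 103 for reference genes, 79.4 for glycolysis, 139 for the respiratory chain, 7.34 for sex-linked, 1.26 for lymphoid and 0.00252 for mast cell genes, the last being 0.00215 with DESeq2 size factors. Over members in all 6 libraries only, they were 5.09 for gated-out, 10.1 for megakaryocyte, 30.4 for erythroid, 47.4 for granulocyte and monocyte, 102 for lymphoid, 11.2 for mast cell, 8.63 for stroma and 11.5 for immediate early genes. Leaving out each library moved the medians of megakaryocyte (3.96 to 5.92), erythroid (0.434 to 1.42, the lowest without library 1), lymphoid (0.329 to 1.02, the lowest without library 2), mast cell (0 to 0.00257), stroma (0.00358 to 0.0121) and immediate early genes (0.794 to 4.79, the lowest without library 4). The gated-out median, 0.203 with all 6 libraries, ranged from 0.0926 to 0.244 and was lowest without library 5.

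Without the 2 farthest libraries, r was -0.24 for depth, 0.66 for the mitochondrial share and 0.35 for the share of the 10 most counted genes, with 4 libraries each. Cebpa minus Ebf1 ranged from -1.57 to 0.15 without each library, positive without library 2 or 4. No other gene pair changed sign under any alternative run; with 5 libraries the smallest exact p is 0.0625, so leaving out a library could not pass the threshold. The cause of these shifts was not tested. Means of named genes stayed within 1 SD under all scalings. Leaving out 1 library moved the mean by over 1.5 times for 31 of 127 named genes: without library 1 the mean of Gata1 was 0.763 CPM in place of 8.61 and that of Mpo 12.3 in place of 26.7, without library 2 that of Retnlg 3.79 in place of 152, and a gene counted in a single library fell to 0 without it. With 1 CPM per kb added in place of 0.1, Vwf over Elane fell to 0.97 (adjusted exact p = 0.125) and Gata2 over Gata1 to 3.36.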
